A study of Mus musculus with 18 samples.

Results

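The response to p53 restoration was measured in 4711-1, a mouse small cell lung cancer (SCLC) cell line, in 6 of the 18 RNA-sequencing samples of the experiment. These were the 3 Control and the 3 Restored samples whose labels name this line, and they were paired by sgRNA. The other 12 samples came from 4711-18 and 4716-11, which the labels place with 4711-1 in Type D, the class of lines that the study describes as dying after p53 returns. Each line had been selected for a CRISPR vector with sgBgal, a control guide against β-galactosidase, or with sgPpia#3.2 or sgPpia#4.1, which cut the gene of cyclophilin A. Each of these populations was treated for 72 h with vehicle (Control) or with 4-hydroxytamoxifen (4-OHT, Restored).

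All groups shared the same engineered background. The lines were derived from single lung tumours of mixed B6J/129S4vJae mice in which adenoviral CMV-driven Cre had deleted floxed Rb1 and Rbl2 and had turned off Trp53 through the XTR gene trap. A FlpO-ER recombinase expressed from Rosa26 removes the trap when 4-OHT is added, so that Trp53 is expressed again from its own promoter. The 3 pairs of 4711-1 are populations of 1 cell line that differ in their sgRNA. The p-values and standard errors use 1 spread per gene, shared by the populations of all 3 lines. They measure that shared spread and not the spread between tumours. An effect of 4-OHT or of the recombinase itself cannot be told apart from that of p53, since no line without the trap was analysed here. Where a transcript differs in level, fewer cells with the transcript and less transcript per cell cannot be told apart in these bulk samples.

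p53 is a transcription factor that binds DNA as a tetramer, at a response element made of a pair of similar decamers. It activates genes that stop the cell cycle, promote cell death, repair DNA and adjust metabolism, and among them Mdm2, whose product degrades p53. Many genes of mitosis fall after p53 activation through the cell cycle inhibitor p21, the product of Cdkn1a, and the RB family of repressors. SCLC is a neuroendocrine lung cancer that almost always lacks both p53 and RB.

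Trp53 itself checked the labels. In 4711-1 it stood at 7.42, 6.68 and 5.81 TPM (the number of transcripts of a gene scaled to a fixed total per sample) in the Control populations with sgBgal, sgPpia#3.2 and sgPpia#4.1, and at 223, 213 and 199.99 TPM in the Restored ones. The groups did not overlap, and the rise was 4.81 ± 0.09 (SE from the spread shared by the 3 lines, n = 3 pairs). It is on the log2(TPM + 1) scale, on which all fold changes and differences are given here. Trp53 rose by 4.62 in 4711-18 and by 4.76 in 4716-11, and the difference between 4711-1 and the mean of the others, 0.11 ± 0.11, did not pass the test (limma, adjusted p = 0.655). Ppia, which encodes cyclophilin A, was at 2704 TPM in the sgBgal Control, 1073 TPM with sgPpia#3.2 and 1713 TPM with sgPpia#4.1, and at 2060.1, 873 and 1678 TPM after restoration. Rb1 was at 3.36 to 5.30 TPM in Control and at 15.7 to 17.9 TPM in Restored cells, which is no check of its deletion, since the values do not say which exons were read.

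The neuroendocrine label was only partly met by the transcripts. Chga, a protein of secretory granules, was at most 0.134 TPM in the 6 samples of 4711-1, and Calca, the precursor of calcitonin and CGRP, was listed at 0 in all of them. Insm1, a neuroendocrine transcription factor, was present at 1.78 to 3.37 TPM, and Syp, a synaptic vesicle protein, at 3.03 to 5.496 TPM. Summed over the 34 genes of the neuroendocrine list, the level was 249 to 315 TPM in Control and 261 to 324 TPM in Restored cells. Most of that sum came from Foxa1 (59.2 to 97.4 TPM), Foxa2 (78.7 to 101 TPM) and Nfib (31.4 to 44.9 TPM), transcription factors that are not specific to neuroendocrine cells, and 18 of the 34 genes were below 1 TPM in every Control and 19 in every Restored sample. The list also holds Rest, a repressor of neuronal genes, at 7.61 to 16.97 TPM. Immune cell markers summed to 4.01 to 6.59 TPM and rose to 25.2 to 32.6 TPM, nearly all of it Cd68, a lysosomal protein that moved from 1.997 to 3.85 TPM up to 24.2 to 30.4 TPM and also rose in the other lines. Fibroblast markers summed to 0.728 to 1.44 TPM in Control and 1.55 to 7.67 TPM in Restored cells, where Pdpn, also present in epithelium, went from 0.154, 0.173 and 0.404 TPM to 0.698, 1.91 and 6.48 TPM and every other marker was below 0.7 TPM, and endothelial markers to no more than 1.503 TPM in either. The part of such cells in the results below was not tested.

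Restoration changed 1113 of the 12828 genes tested in 4711-1, which is 8.68% of them (limma with 1 term for each population, called at a log2 change of at least 1 in size and a Benjamini-Hochberg adjusted p below 0.05). Of these, 733 rose (5.71% of the genes tested) and 380 fell (2.96%). The same fit called 1754 genes (13.7%) in 4711-18, with 9.43% rising and 4.24% falling, and 1390 (10.8%) in 4716-11, with 7.77% rising and 3.06% falling, so the response of 4711-1 held the fewest called genes of the 3 lines. The median log2 change of all genes tested was 0.13 in 4711-1, 0.22 in 4711-18 and 0.15 in 4716-11. TPM are shares of a fixed total, and the split between rises and falls depended on that scale. After median-of-ratios rescaling, which moved the median of 4711-1 to 0.00118, 580 genes rose and 464 fell, so that rises made up 55.6% of the calls in place of 65.9%. The same rescaling gave 763 rises and 806 falls in 4711-18, in place of 1210 and 544, and 747 and 565 in 4716-11, in place of 997 and 393.

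Most of what moved in 4711-1 also moved in the other lines. Among the genes that rose, 77.2% also rose in 4711-18 and 74.8% in 4716-11, and 490 rose in all 3 lines. Seen from the other side, 46.8% of the genes that rose in 4711-18 and 55.0% of those in 4716-11 rose in 4711-1. Among the genes that fell, 71.3% also fell in 4711-18 and 62.6% in 4716-11, with 206 shared by all 3. A count of 109 rises and 77 falls was called in 4711-1 alone, but 83 of these rises and 54 of these falls did not pass the test of the difference from the mean of the other lines. G0s2, an inhibitor of triglyceride breakdown, was the single gene called in opposite directions and is named after its values were seen. It rose in 4711-1 from 27.9, 72.9 and 83.3 TPM to 63.8, 156 and 253 TPM and fell in 4711-18 from 2.94, 17.6 and 4.72 TPM to 1.89, 4.28 and 2.36 TPM. Each population moved in its line's direction, although the Control and Restored ranges overlapped in both lines.

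The 24 largest changes of 4711-1, 12 rises and 12 falls, were called the same way in all 3 lines. The rises were led by Slc4a11, a membrane transporter, at 2.06, 2.67 and 2.31 TPM in Control and 143, 136 and 94.6 TPM in Restored cells. Its log2 rise of 5.21 ± 0.36 stood beside 3.72 in 4711-18 and 3.68 in 4716-11, yet the difference of 1.51 ± 0.44 did not pass the test (limma, adjusted p = 0.102). Atg9b, a lipid scramblase of autophagy, followed with a rise of 5.10 ± 0.25, from 5.19, 5.42 and 5.02 TPM to 239, 275 and 146 TPM. Cd80, a costimulatory ligand for T cells, went from 0.441, 0.279 and 0.349 TPM to 28.1, 23.97 and 20.9 TPM. The other rises of this set were Lce1g (4.71), Sytl1 (4.65), Ak1 (4.59), Inka2 (4.5002), Ddit4l (4.33), Sulf2 (4.28), Ces2e (4.26), Ptp4a3 (4.16) and Trp53.

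The canonical p53 targets followed this pattern. Cdkn1a stood at 122, 99.4 and 129 TPM in Control and at 2125, 1892 and 1565 TPM in Restored cells, and Mdm2 at 93.3, 83.6 and 76.2 TPM against 1604, 1591 and 868 TPM. Both sets of values were fully separated, with log2 rises of 3.98 ± 0.27 and 3.94 ± 0.15, and neither difference from the mean of the other lines passed the test (limma, adjusted p = 0.87 and 0.879). Of 11 genes of the p53 negative feedback loop, 8 rose in 4711-1, with a median log2 change of 2.13 against 2.76 in 4711-18 and 2.51 in 4716-11. Of 15 antiproliferative targets 4 rose, of 13 DNA repair targets 4, of 16 genes of the apoptosome, caspases and death receptors 8, and of 19 metabolic and antioxidant targets 10, beside 5.71% of all genes tested. None of these lists held a gene that fell.

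To show how a p53 response element looks in these promoters, windows of 60 or 61 bases are given for the promoters of 5 genes that rose in all 3 lines, from RefSeq (GRCm38.p6), 5′ to 3′ on the strand of the gene, with the matched element in capitals. An element was taken as the p53 consensus by name, a pair of decamers that each hold the core CNNG (searched on both strands, which overlap since the element is nearly its own reverse complement), with at most 2 mismatches in all and at most 1 base between the decamers. Cdkn1a (the cell cycle inhibitor p21; chr17:29090908-29090967, plus strand), Ccng1 (cyclin G1, a negative regulator of p53; chr11:40755442-40755501, minus strand), Gtse1 (a microtubule protein that restrains p53; chr15:85859925-85859984, plus strand), Bax (a pore-forming protein of apoptosis; chr7:45467059-45467119, minus strand) and Cd80 (chr16:38458802-38458861, plus strand) gave these windows.
Cdkn1a: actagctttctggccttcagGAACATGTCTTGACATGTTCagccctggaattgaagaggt
Ccng1: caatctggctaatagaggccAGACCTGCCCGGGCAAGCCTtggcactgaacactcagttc
Gtse1: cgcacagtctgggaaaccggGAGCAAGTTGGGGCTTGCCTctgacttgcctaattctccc
Bax: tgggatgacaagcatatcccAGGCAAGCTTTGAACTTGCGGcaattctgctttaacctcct
Cd80: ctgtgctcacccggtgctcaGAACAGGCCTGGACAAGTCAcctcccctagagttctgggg

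The matches began at -51, -195, -1, -201 and -111 relative to the annotated start site in this order. In 4711-1 the log2 rises of these genes were 3.98, 3.53 for Ccng1, 2.45 for Gtse1, 1.58 for Bax and 4.21 for Cd80. Such a match lay in the window from 250 bases before to 50 after the start site of 98 of the 10017 tested genes with a promoter sequence that were counted, which is 0.978%. Promoters on 1 chromosome were left out of all these counts. It was present in 16 of 551 genes that rose in 4711-1 (2.9%), in 4 of 294 that fell (1.36%) and in 14 of 389 that rose in all 3 lines (3.6%). Among the genes whose response differed from each of the other lines, it was present in 0 of 15 that were higher in 4711-1 and in 1 of 35 that were lower. A match is a description of letters in this window, and elements further away were not searched.

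**Figure D1:**
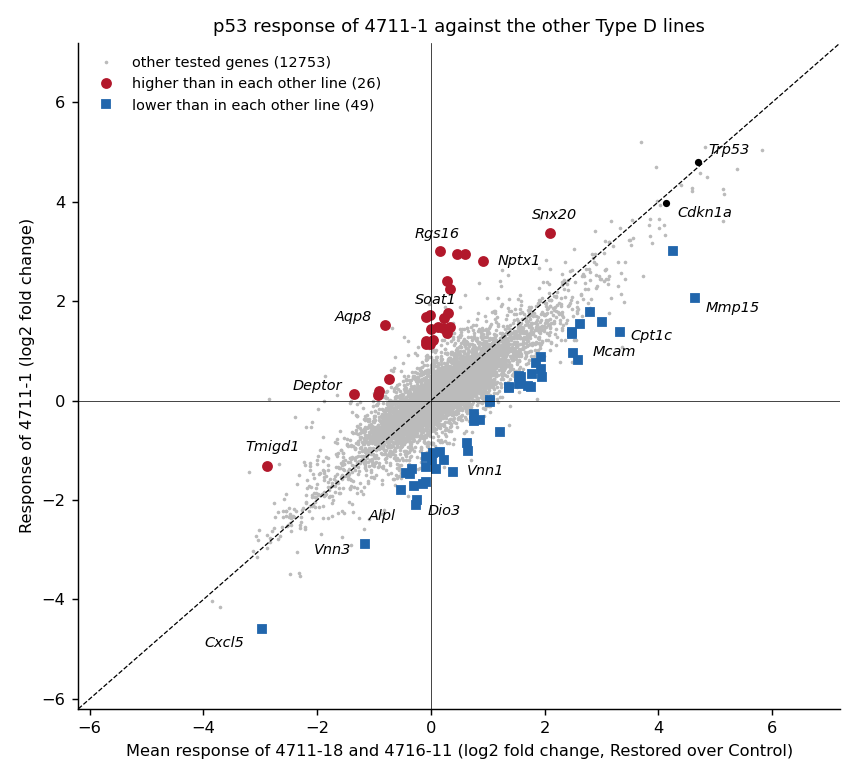
Log2 fold change (Restored over Control) of each of the 12828 tested genes in 4711-1 (vertical axis) against the mean of 4711-18 and 4716-11 (horizontal axis), with the line of equality dashed. Most genes lie along that line, as do Trp53 and Cdkn1a in black, while 26 genes in red were higher and 49 in blue lower in 4711-1 than in each other line.

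The response differed from the mean of the other lines in 142 genes, 1.11% of those tested, of which 47 were higher (0.366%) and 95 lower (0.741%) in 4711-1 (limma, the same thresholds for the difference). For 75 genes (0.585%) the response also differed from each of the other lines taken singly, 26 upwards (0.203%) and 49 downwards (0.382%). In all 75, the 3 pair differences of 4711-1 lay outside the range of the 6 others, as did those of 8.86% of all genes tested, 2.75% above and 6.1% below. By kind, 20 of the 75 rose in 4711-1 alone, 18 fell there alone, 17 rose elsewhere and were not called in 4711-1, 8 rose less, 2 fell more (Cxcl5 and Vnn3), 2 fell elsewhere and were not called in 4711-1 (Deptor and Myh14), 1 rose more (Snx20), 1 fell less (Tmigd1) and 6 were called in no line. In 18 of the 75, among them 10 of the 20 that rose and 8 of the 18 that fell in 4711-1 alone, the means of the other lines were below 1 TPM in both states. These 18 passed the filter on low values mainly through 4711-1. Their difference was thus largely bound to follow from its response, and their number is no result about the other lines. The number was smaller under some settings, with 38 genes without the population terms, 34 with a pseudocount of 0.1 and 39 without the sgPpia#4.1 pair of 4711-1, and it was 119 without the sgPpia#3.2 pair of 4711-18, a setting added after the data had been seen. Without that sgPpia#4.1 pair, 74 genes differed from the mean of the others in place of 142.

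**Figure D2:**
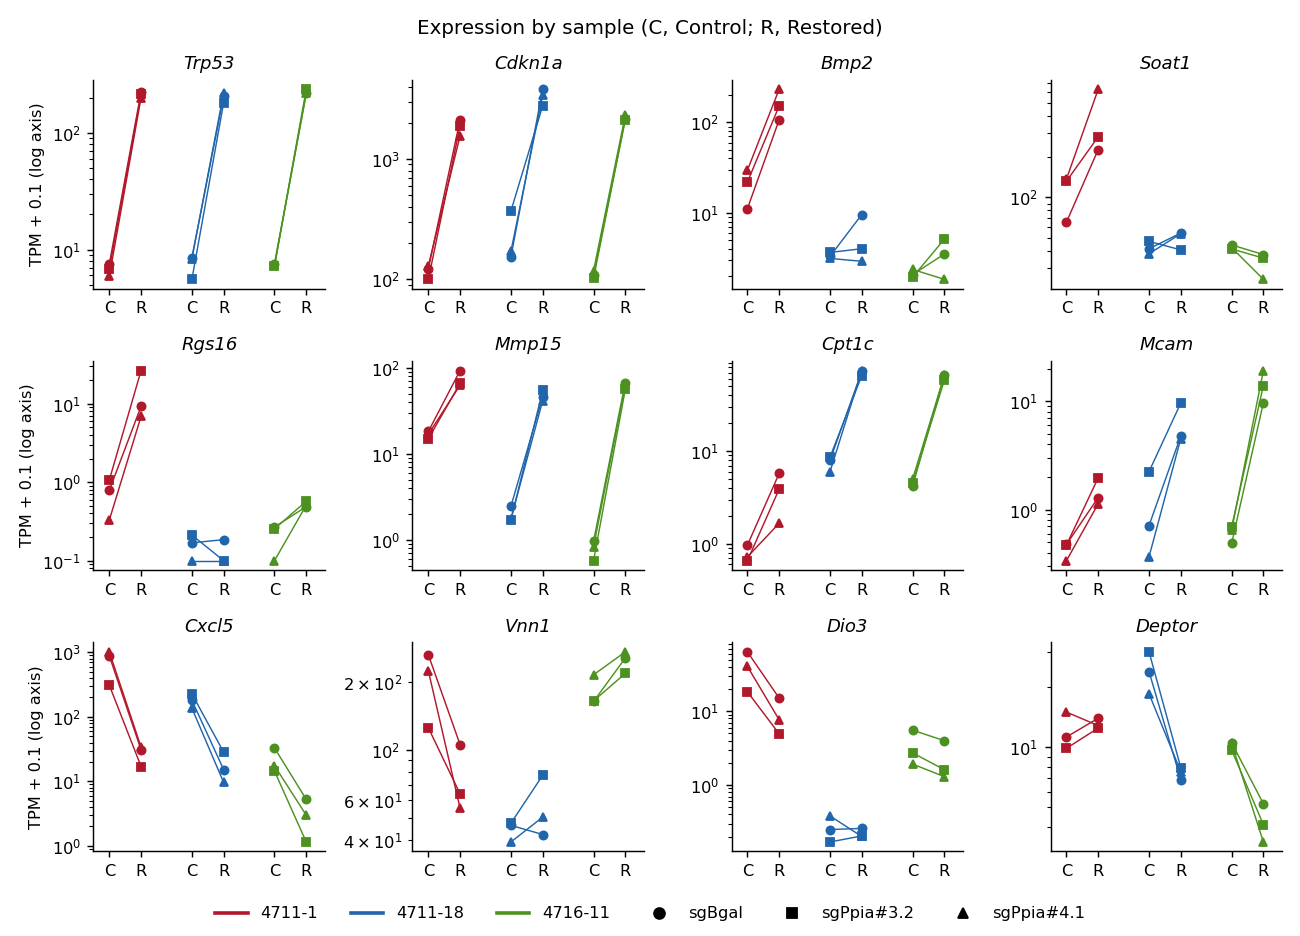
TPM + 0.1 on log axes for 12 genes in the 18 samples, with the Control (C) and Restored (R) samples of a population joined by a line, and colours for cell lines and symbols for sgRNAs. Trp53 and Cdkn1a move alike in the 3 lines, while Bmp2, Soat1 and Rgs16 rise in 4711-1, Mmp15, Cpt1c and Mcam rise less there, Cxcl5 falls more there, Vnn1 and Dio3 fall there, and Deptor falls in the other lines.

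The genes that rose in 4711-1 alone differed in function. Bmp2, a ligand of the TGF-β superfamily, was at 11.1, 21.8 and 29.6 TPM in Control and at 107, 152 and 232 TPM in Restored cells, where the other lines had means of 5.42 and 3.40 TPM. Every Restored sample of 4711-1 was above every other sample, and every Control sample was already above the other lines. The rise of 2.95 ± 0.29 exceeded the mean of the others by 2.49 ± 0.35 (limma, adjusted p = 0.0088). Rgs16, which ends signalling by G proteins, went from 0.687, 0.965 and 0.229 TPM to 9.16, 26.3 and 6.78 TPM. It was below 0.5 TPM in all 12 samples of the other lines and was tested through 4711-1 alone, and its difference of 2.86 ± 0.24 (limma, adjusted p = 0.00133) was the largest upward one among the genes that differed from each other line. Nptx1, a secreted neuronal pentraxin, rose from 3.18, 5.70 and 5.05 TPM to 40.3, 35.01 and 38.2 TPM, a log2 rise of 2.81 against 0.89 in 4711-18 and 0.96 in 4716-11. Qrfp, the precursor of a neuropeptide, rose from 8.76, 13.5 and 7.21 TPM to 24.5, 42.6 and 32.7 TPM, while its Control range overlapped those of the other lines, with means of 9.82 TPM in 4711-1, 8.40 TPM in 4711-18 and 11.6 TPM in 4716-11. Among these genes, the difference of Nptx1 missed the threshold with a pseudocount of 0.1 (limma, adjusted p = 0.0564).

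Soat1, which esterifies cholesterol for storage in lipid droplets, was the most abundant of these genes. It was at 65.5, 132 and 137 TPM in Control and at 227, 282 and 634 TPM in Restored cells, without overlap, and the means of the other lines went from 42.3 to 49.6 TPM in 4711-18 and from 42.7 to 32.5 TPM in 4716-11. Its difference was 1.78 ± 0.26 (limma, adjusted p = 0.00968). Aqp8, a water channel, went from 0.655, 1.30 and 1.34 TPM to 1.78, 5.11 and 11.6 TPM, whereas its mean went from 2.30 to 1.01 TPM in 4711-18 and from 4.05 to 1.60 TPM in 4716-11. Adgrg3, an adhesion G protein-coupled receptor, rose from 5.45, 13.9 and 13.8 TPM to 15.7, 30.2 and 32.4 TPM, so that its Restored range lay above its own Control range and above the other lines, where it was at most 2.82 TPM. The call of its difference was lost with a pseudocount of 0.1 (limma, adjusted p = 0.126) and without the population terms (0.136).

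Low genes made up the rest of the named rises. Fam124a reached 10.1, 8.58 and 7.17 TPM, Fam167a 8.28, 12.5 and 11.4 TPM, Klk8, a secreted serine protease, 4.60, 9.49 and 7.33 TPM, and Pitpnm3 5.92, 4.91 and 4.53 TPM. In Control cells of 4711-1 none of these genes was above 2.96 TPM. In the other lines none was above 0.879 TPM in any sample. At such levels the pseudocount weighs on the log scale, and with one of 0.1 the differences of Fam124a, Fam167a, Klk8 and Pitpnm3 missed the threshold (limma, adjusted p = 0.0719, 0.0623, 0.287 and 0.0674). Snx20, a sorting nexin, rose in all 3 lines but by more in 4711-1, from 1.35, 0.464 and 1.78 TPM to 22.6, 18.7 and 21.9 TPM, with log2 rises of 3.37, 1.79 and 2.41 in the 3 lines. Its difference shrank from 1.27 to 0.36 with a pseudocount of 0.1 (limma, adjusted p = 0.711).

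Weaker induction in 4711-1 was found for 25 genes, the 8 that rose less and the 17 called elsewhere but not in 4711-1. In 3 of the 17 the means of 4711-1 were below 1 TPM in both states. For these a small response on this scale was largely fixed. Mmp15, a membrane-bound matrix metalloproteinase, had the largest downward difference of all named genes, -2.57 ± 0.15 (limma, adjusted p = 0.000344). It was at 18.1, 14.8 and 16.8 TPM in Control and at 92.7, 66.0 and 62.7 TPM in Restored cells of 4711-1, and went from means of 1.87 to 47.3 TPM in 4711-18 and of 0.688 to 61.9 TPM in 4716-11. The Control levels of 4711-1 were thus above those of the other lines, while its Restored levels overlapped theirs. Cpt1c, the brain form of carnitine palmitoyltransferase, differed at both ends. It moved from 0.870, 0.560 and 0.624 TPM to 5.66, 3.80 and 1.57 TPM in 4711-1, and from 7.43 to 70.4 TPM and 4.48 to 63.2 TPM on average in the other lines, so that the Restored level of 4711-1 was within or below their Control range of 4.11 to 8.52 TPM. With a pseudocount of 0.1 its difference of -1.40 missed the threshold (limma, adjusted p = 0.0707). Mcam, a cell adhesion molecule, reached only 1.19, 1.87 and 1.03 TPM in Restored 4711-1, against means of 6.22 TPM in 4711-18 and 14.2 TPM in 4716-11.

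Known p53 targets were among these weaker responses. Perp, a desmosomal protein linked to p53-dependent apoptosis, was at 201, 193 and 166 TPM in Control and at 728, 630.4 and 587 TPM in Restored 4711-1. Its rise of 1.79 ± 0.09 was smaller than 2.96 in 4711-18 and 2.65 in 4716-11 (difference -1.01 ± 0.11, limma, adjusted p = 0.00286), and its Restored levels overlapped those of the other lines. Btg2, an antiproliferative cofactor, was at 278, 158 and 65.4 TPM in Control and at 431, 378 and 109 TPM in Restored cells, a rise of 0.87 ± 0.14 below the fold threshold, against 2.07 and 1.81. In both genes the Control mean of 4711-1, 187 TPM for Perp and 167 TPM for Btg2, was higher than in the other lines. Both differences were near the fold threshold, that of Perp falling to -0.94 with rescaling and to -0.97 and -0.98 without the sgPpia#3.2 pair of 4711-1 or of 4711-18. That of Btg2, -1.07 ± 0.17 (limma, adjusted p = 0.0135), was lost without the population terms (0.657), without the sgBgal pair (0.0572) and without the sgPpia#4.1 pair (0.065). With rescaling the difference of Btg2 was -0.996, under the fold threshold. Mgmt, a DNA repair protein that removes alkyl groups from guanine, was at 0.752, 0.0354 and 0.255 TPM in Control and at 1.89, 1.64 and 1.14 TPM in Restored 4711-1, while its mean went from 12.9 to 85.5 TPM in 4711-18 and from 0.182 to 5.13 TPM in 4716-11. The difference of Mgmt was lost with a pseudocount of 0.1 (limma, adjusted p = 0.365) and without the sgBgal or the sgPpia#4.1 pair (0.069 and 0.078). Ptprv, a p53-induced phosphatase gene, was not one of these weaker responses, since it was called only against the mean of the other lines. It reached 0.911, 1.05 and 0.660 TPM in 4711-1 and a mean of 1.40 TPM in 4711-18 against 10.9 TPM in 4716-11, so that the high level was that of 4716-11.

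Further genes rose elsewhere and were not called in 4711-1. Adgrg6, an adhesion G protein-coupled receptor, was at 5.67, 4.04 and 4.36 TPM in Control and 9.34, 6.02 and 3.44 TPM in Restored 4711-1, overlapping groups, with log2 changes of 0.28 against 2.13 and 1.40. Angptl2, a secreted glycoprotein, went from 2.05, 1.88 and 2.71 TPM to 2.96, 3.27 and 4.25 TPM, with log2 changes of 0.48 against 1.42 and 2.49. Sncg, γ-synuclein, was at 3.24, 2.14 and 2.69 TPM in Control and 1.27, 2.13 and 0.854 TPM in Restored cells, and rose by 1.32 and 1.12 in the other lines. Clca3a1, a chloride channel regulator, was called in no line but moved from a mean of 4.66 to 2.173 TPM in 4711-1 and upwards in the others (difference -1.48 ± 0.26, limma, adjusted p = 0.0201). Its call was lost with no filter on low values (limma, adjusted p = 0.0518) and when any 1 of the 3 pairs of 4711-1 was left out (0.0672 without sgBgal, 0.0545 without sgPpia#3.2 and 0.0914 without sgPpia#4.1).

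Cxcl5 and Vnn3 fell more in 4711-1 than in each other line, and Vnn1 fell there alone. Cxcl5, a chemokine that attracts neutrophils, was at 885, 309.9 and 1019 TPM in Control and 30.7, 16.9 and 33.8 TPM in Restored cells, the largest fall among the named genes at -4.60 ± 0.19. Its mean went from 182 to 17.6 TPM in 4711-18 and from 21.5 to 3.03 TPM in 4716-11, and the response differed by -1.64 ± 0.23 (limma, adjusted p = 0.0089). The Control samples of 4711-1 were above all those of the other lines, and the Restored ranges overlapped. The difference of Cxcl5 was lost with a pseudocount of 0.1 (limma, adjusted p = 0.0604) and without the population terms (0.243). Vnn1 and Vnn3 encode vanins, of which Vnn1 is a pantetheinase that releases cysteamine. Vnn1 fell from 263, 125 and 224 TPM to 105, 63.6 and 54.9 TPM, whereas its mean was 44.1 TPM before and 56.4 TPM after restoration in 4711-18 and 181 and 248 TPM in 4716-11 (difference -1.81 ± 0.24, limma, adjusted p = 0.00715). Vnn3 fell from 30.0, 9.57 and 28.4 TPM to 2.81, 1.26 and 1.84 TPM, a log2 change of -2.88 against -1.05 and -1.28.

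Some falls concerned genes that were low in the other lines. Dio3, a deiodinase that inactivates thyroid hormone, was at 63.4, 18.2 and 40.3 TPM in Control and 14.9, 4.83 and 7.54 TPM in Restored 4711-1, against Control means of 0.167 and 3.30 TPM elsewhere (difference -1.76 ± 0.14, limma, adjusted p = 0.000698, and 0.12 without the population terms). Alpl, the tissue-nonspecific alkaline phosphatase, went from 8.33, 2.71 and 8.53 TPM to 0.611, 0.347 and 0.914 TPM, and St8sia6, a sialyltransferase, from 13.4, 7.40 and 16.8 TPM to 5.504, 2.20 and 2.46 TPM. In the other lines both were under 1 TPM in every sample, and with a pseudocount of 0.1 neither difference passed (limma, adjusted p = 0.068 and 0.115). Filip1l was present in all 3 lines, and fell in 4711-1 from 65.1, 45.6 and 40.7 TPM to 23.6, 23.8 and 11.3 TPM while its log2 changes elsewhere were 0.28 and -0.10.

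Some genes that fell elsewhere changed less in 4711-1. Deptor, an inhibitor of mTOR, was at 11.2, 9.80 and 14.9 TPM in Control and 13.9, 12.4 and 12.8 TPM in Restored 4711-1, overlapping groups. Its mean fell from 24.1 to 7.35 TPM in 4711-18 and from 10.1 to 4.12 TPM in 4716-11, and the difference was 1.48 ± 0.19 (limma, adjusted p = 0.00555). Tmigd1, an adhesion protein of epithelia, fell in 4711-1 from 38.0, 26.4 and 45.3 TPM to 11.1, 9.15 and 25.5 TPM, a log2 change of -1.31 against -2.88 in each of the others. Its difference of 1.57 ± 0.28 (limma, adjusted p = 0.0224) was lost with a pseudocount of 0.1 (0.051), with no filter on low values (0.0573), without the population terms (0.256), without the sgPpia#3.2 pair (0.0582) and without the sgPpia#4.1 pair (0.0953).

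The levels before and after restoration were then set side by side, to see at which end 4711-1 stood apart. Of the 20 genes that rose in 4711-1 alone, the 3 Restored samples were above all 6 Restored samples of the other lines in 18, and the 3 Control samples were already above the 6 other Controls in 14. For the 10 of these genes whose means in the other lines were below 1 TPM this was largely fixed. Of the remaining 10, Restored was above in 8 and Control in 6. Of the 18 genes that fell in 4711-1 alone, Control was above the other lines in 15 and Restored in 6, with overlap in Restored cells in 11. Without the 8 whose means in the other lines were below 1 TPM, Control was above in 7 of 10 and Restored in 1, with overlap in 8. For the 25 genes with weaker induction, Control was above in 8, overlapped in 13 and was below in 4, while Restored was below in 14 and overlapped in 9. In 3 of these 25 the means of 4711-1 were below 1 TPM in both states, and the counts were not split by this. Over all genes tested, Control of 4711-1 was above the others in 10.5% and below in 8.49%, and Restored above in 10.1% and below in 12%. These counts are a description, since a gene chosen for its difference has to differ at one end or the other.

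Gene lists were described by their counts, beside the 5.71% of all genes tested that rose and the 2.96% that fell in 4711-1. All 31 genes of mitosis fell in each line, with a median of -2.28 in 4711-1, -3.09 in 4711-18 and -1.61 in 4716-11. Plk1, a mitotic kinase, went from 137, 145 and 104 TPM to 19.6, 19.9 and 8.28 TPM. None of 31 genes of DNA replication was called in 4711-1, where their median was 0.09 and turned to -0.06 with rescaling. Of 23 genes of sterol synthesis 13 fell, with a median of -1.10. In 4711-18 19 fell and in 4716-11 9, where 4.24% and 3.06% of all genes fell. Hmgcs1, an early enzyme of that pathway, went from 264, 199.6 and 201 TPM to 67.5, 70.9 and 93.1 TPM. Of 14 histone genes 7 fell and none rose, of 22 EGFR ligands and growth factors 10 rose and 1 fell, of 39 lysosome and autophagy genes 6 rose and none fell, and of 19 glycolysis genes and 16 cyclophilins none was called in 4711-1. Against 8.68% of all genes called in either direction, 44.4% of 9 proapoptotic BCL2 genes (3 rises and 1 fall), 25% of 20 NRF2 antioxidant genes (4 rises and 1 fall) and 23.1% of 13 fatty acid synthesis genes (3 falls) were called in 4711-1. A single gene was called in each of 5 other lists, a rise among 6 CDK inhibitors, 7 necroptosis and pyroptosis genes, 20 interferon-stimulated genes (5%) and 12 genes of antigen presentation (8.33%), and a fall among 8 prosurvival genes. Several of these calls were lost under an alternative. Without the sgBgal pair these were Gclc, Txnrd1 and Gstm1 of the NRF2 genes, Bmf of the proapoptotic genes and Cyld of the necroptosis genes, and without the population terms H1f2, H2bc4 and H4c9 of the histones.

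The 6 Modules are the study's own gene lists, clustered from genes that changed on restoration in samples that include these lines, so their direction is not independent evidence. Of 240 tested genes of Module 1, 194 rose in 4711-1, 214 in 4711-18 and 204 in 4716-11, with medians of 1.56, 1.89 and 1.86. Of all genes tested, 5.71%, 9.43% and 7.77% rose in these lines. The response of 4711-1 was lower than in each other line for 7 of the 240 and higher for none, beside 0.382% and 0.203% of all genes. In 48 of the 240 all 3 pairs of 4711-1 lay below the range of the 6 others, beside 783 of all 12828 genes (6.1%). Module 5, which the study describes as induced mainly in Type D lines, had 62 of 100 genes rising in 4711-1, 88 in 4711-18 and 62 in 4716-11, with medians of 1.26, 1.60 and 1.20. In the test against the mean of the others, 4 of its 100 genes were lower in 4711-1, beside 0.741% of all genes. The median difference of Module 1 between 4711-1 and the others was -0.28, and -0.14 without the sgPpia#4.1 pair of 4711-1. For Module 5 it was -0.20, and -0.04 without that pair. Module 6 had 48 of 73 genes rising. In Modules 2, 3 and 4, 16 of 56, 127 of 227 and 37 of 75 genes fell, beside 2.96% of all genes, and none rose.

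Squamous and barrier genes of the epithelium included 4 that were called in the difference. Of 24 tested, 5 rose and 3 fell in 4711-1, beside 5.71% and 2.96% of all genes. In each of the other lines 12 rose, beside 9.43% of all genes in 4711-18 and 7.77% in 4716-11. The median was 0.60 in 4711-1 against 1.00 and 0.91. In the difference 1 was higher and 3 were lower, a share of 16.7% beside 1.11% of all genes, Perp among them. Sprr1a, a precursor of the cornified envelope, was at 1955, 2416 and 1836 TPM in Control and 5275, 5135 and 2979.6 TPM in Restored 4711-1, and its mean went from 349 to 5721 TPM in 4711-18 and from 918 to 4634 TPM in 4716-11. The Control samples of 4711-1 were above all other Controls, and the rise of 1.07 ± 0.33 was apart from the mean of the others by -2.28 ± 0.40 (limma, adjusted p = 0.0201). Krt13, a keratin of mucosal epithelium, had a log2 change of 0.67 in 4711-1 against 1.38 and 2.54, and Krt79, a keratin of hair follicle and gland ducts, one of -1.28 against -2.96 and -2.37. The call of that rise was lost with no filter on low values (limma, adjusted p = 0.0729), without the population terms (0.0522), without the sgBgal or the sgPpia#3.2 pair (0.143 and 0.0981) and with rescaling, where the rise was 0.92. The difference of Sprr1a was lost with no filter on low values (limma, adjusted p = 0.0562) and when any 1 pair of 4711-1 was left out (0.0548 without sgBgal, 0.0616 without sgPpia#3.2 and 0.0946 without sgPpia#4.1). Krt79 lost its call likewise (0.136, 0.0795 and 0.196 in this order), and also with a pseudocount of 0.1, no filter, no population terms and rescaling (0.0944, 0.11, 0.077 and 0.0518). Krt13 lost its call without sgPpia#3.2 (0.0942), without sgPpia#4.1 (0.143), with a pseudocount of 0.1 (0.08) and with no filter (0.0768).

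Differences were also called for a few signalling and lineage genes of other lists. Of the 22 EGFR ligands and growth factors, Nrg1 and Ccn2 were called, a share of 9.09% beside 1.11% of all genes. Nrg1, a ligand of ERBB receptors, was at 2.18, 1.93 and 1.44 TPM in Control and at 3.73, 3.24 and 2.62 TPM in Restored 4711-1, a log2 change of 0.56 with 1.48 in 4711-18 and 1.65 in 4716-11. Its difference of -1.01 ± 0.23 (limma, adjusted p = 0.0445) was lost under 8 of 10 alternatives, among them the omission of any 1 pair of 4711-1 (0.126, 0.109 and 0.15 without sgBgal, sgPpia#3.2 and sgPpia#4.1). Ccn2, a matricellular protein, was at 334, 336 and 76.7 TPM in Control and at 195, 285 and 30.7 TPM in Restored 4711-1, so the sgPpia#4.1 population was the lowest in both states. Its difference of -1.18 ± 0.27 (limma, adjusted p = 0.0486) was lost under 5 of 10, among them the omission of the sgBgal or the sgPpia#4.1 pair (0.134 and 0.191) and of the population terms (0.635). Jag1, a Notch ligand, rose in 4711-1 alone, from 84.6, 112 and 128 TPM to 158, 224 and 302 TPM, with a difference of 1.01 ± 0.23 that was just under the threshold (limma, adjusted p = 0.0498) and above it without the sgBgal, sgPpia#3.2 or sgPpia#4.1 pair (0.112, 0.108 and 0.196), with a pseudocount of 0.1 (0.0873), with no filter on low values (0.102) and without the population terms (0.23). Its own rise of 1.04 fell to 0.89 with rescaling and to 0.95 without the sgPpia#4.1 pair, under the fold threshold. Of 15 Notch pathway genes 4 rose and 1 fell in 4711-1, beside 5.71% and 2.96% of all genes. Among these Notch genes, Notch3 and Lfng lost their calls without the sgBgal pair. Jun, a subunit of AP-1, was at 271, 254 and 56.3 TPM in Control and 248, 256 and 31.6 TPM in Restored 4711-1, so the population with sgPpia#4.1 stood far below the others in both states. Its difference from the other lines, -1.25 ± 0.23 (limma, adjusted p = 0.0233), was lost without the sgBgal pair (0.0627), without the sgPpia#4.1 pair (0.081), with no filter (0.0559) and without the population terms (0.66). Of 24 AP-1 and immediate early genes, 1 rose and 2 fell in 4711-1, with 5 and 2 rises and no fall in 4711-18 and 4716-11, where 9.43% and 7.77% of all genes rose and 4.24% and 3.06% fell, beside 5.71% and 2.96% in 4711-1. The falls were those of Egr2 and Egr3, immediate early transcription factors, at -1.55 and -1.19, and both calls were lost without the population terms (limma, adjusted p = 0.267 and 0.134), while Egr3 was at -0.78 without the sgBgal pair. Of 21 intestinal and gastric genes 6 fell in 4711-1, beside 2.96% of all genes. Fabp1, a fatty acid binding protein of that list, was called in the difference because its mean fell from 47.9 TPM in 4711-18, while it was at most 0.201 TPM in 4711-1. That call was lost with no filter (limma, adjusted p = 0.0895) and without any 1 pair of 4711-1 (0.116, 0.0887 and 0.115 without sgBgal, sgPpia#3.2 and sgPpia#4.1). Sftpb, a surfactant protein of alveolar cells, was at most 0.629 TPM in 4711-1 and fell from a mean of 29.1 to 1.44 TPM in 4711-18 (lost with a pseudocount of 0.1, limma, adjusted p = 0.0844).

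**Figure D3:**
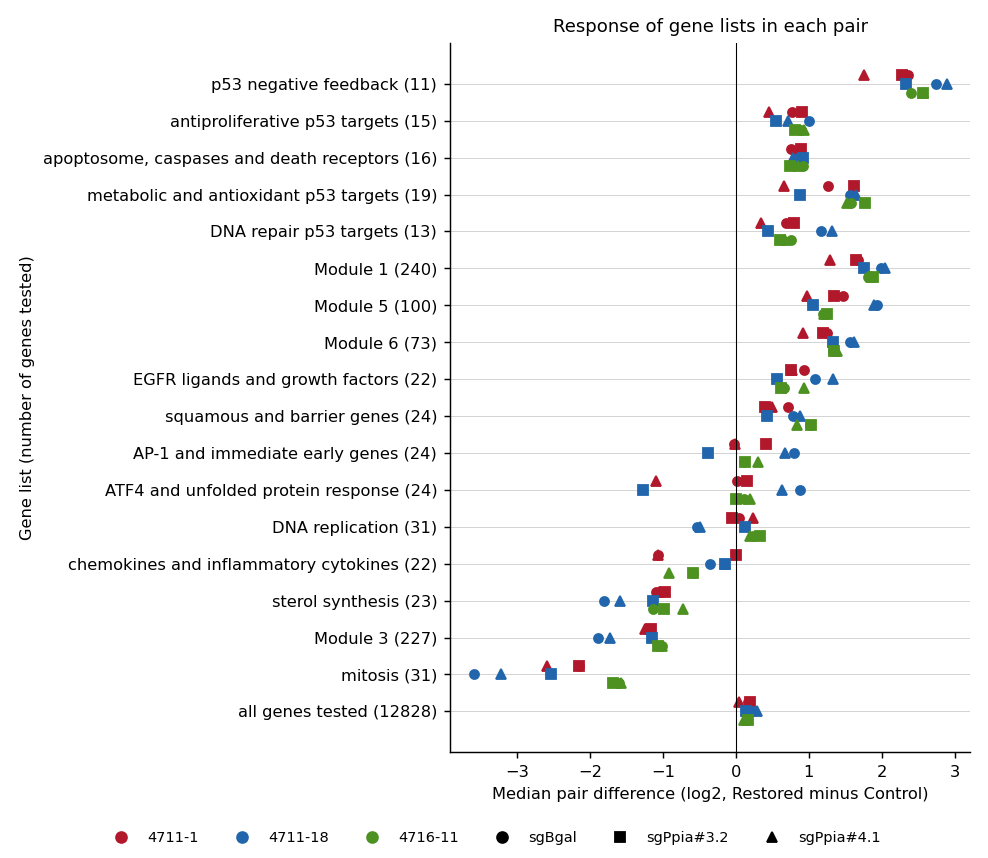
Median over the genes of each list of the pair difference in log2(TPM + 1), Restored minus Control, with 1 point for each of the 9 populations, coloured by line and shaped by sgRNA, and the number of genes tested beside each name. The points of 4711-1 for mitosis lie at -2.15, -2.14 and -2.58, below those of 4716-11, and its sgPpia#4.1 point is the lowest of the line for Modules 1, 5 and 6 and lies at -1.10 for ATF4 genes.

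The populations of 4711-1 did not respond equally. Over all genes, the median pair difference of the sgBgal pair was 0.166, that of the sgPpia#3.2 pair 0.198 and that of the sgPpia#4.1 pair 0.0373. Rises of at least 1 were found for 1013, 1023 and 585 genes in the same order, and falls of at least 1 for 530, 341 and 540. Across the 12828 genes, which are not independent replicates, the pair differences of the populations correlated at 0.86, 0.81 and 0.79. The sgPpia#4.1 pair was also the lowest for Mdm2, with 1604, 1591 and 868 TPM in Restored cells, and for the median of Module 1, with 1.68, 1.64 and 1.29. There is 1 pair per sgRNA, so a difference between populations has no replicate and was not tested. Relative depth, read from the steps between low values, was 1.09, 1.78 and 1.72 times that of the shallowest library in Control and 1, 1.65 and 1.48 in Restored cells, so the sgBgal pair was the shallowest of the line.

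A split between populations lay in targets of ATF4, the transcription factor of the integrated stress response, and of the unfolded protein response. In the sgPpia#4.1 pair of 4711-1, 13 of the 24 genes of this list fell by at least 1 (54.2%, beside 4.21% of all genes), and the median was -1.10. With sgBgal 2 and with sgPpia#3.2 1 of the 24 did so, beside 4.13% and 2.66% of all genes, and the medians were 0.02 and 0.15. Trib3, a pseudokinase induced by ATF4, stood at 37.6, 18.4 and 86.5 TPM in Control and 68.4, 63.0 and 20.01 TPM in Restored cells, so that it rose in the first pairs and fell in the last. Asns, asparagine synthetase, stood at 151, 111 and 285 TPM in Control and 139.8, 109 and 60.2 TPM in Restored cells, and Chac1, which degrades glutathione, at 90.2, 36.8 and 124 TPM and 82.9, 63.6 and 21.0 TPM. In both genes the sgPpia#4.1 population had the highest Control and the lowest Restored value of the line. Sesn2, a target of p53 and ATF4 alike, rose in every pair, from 18.0, 9.01 and 29.6 TPM to 145, 109 and 58.6 TPM. In 4711-18 it was the sgPpia#3.2 pair in which 14 of the 24 fell by at least 1 (58.3%, beside 4.62% of all genes), with a median of -1.27. Its sgBgal and sgPpia#4.1 pairs went the other way, with medians of 0.88 and 0.63. In these pairs 11 and 10 of the 24 rose by at least 1, beside 12.8% and 13.9% of all genes. In 4716-11 at most 1 gene of the list fell by at least 1 in any pair, so the split did not follow 1 sgRNA. Averaged over the pairs, 1 of the 24 rose and 1 fell in 4711-1, beside 5.71% and 2.96% of all genes. None was called in the difference from the other lines.

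**Figure D4:**
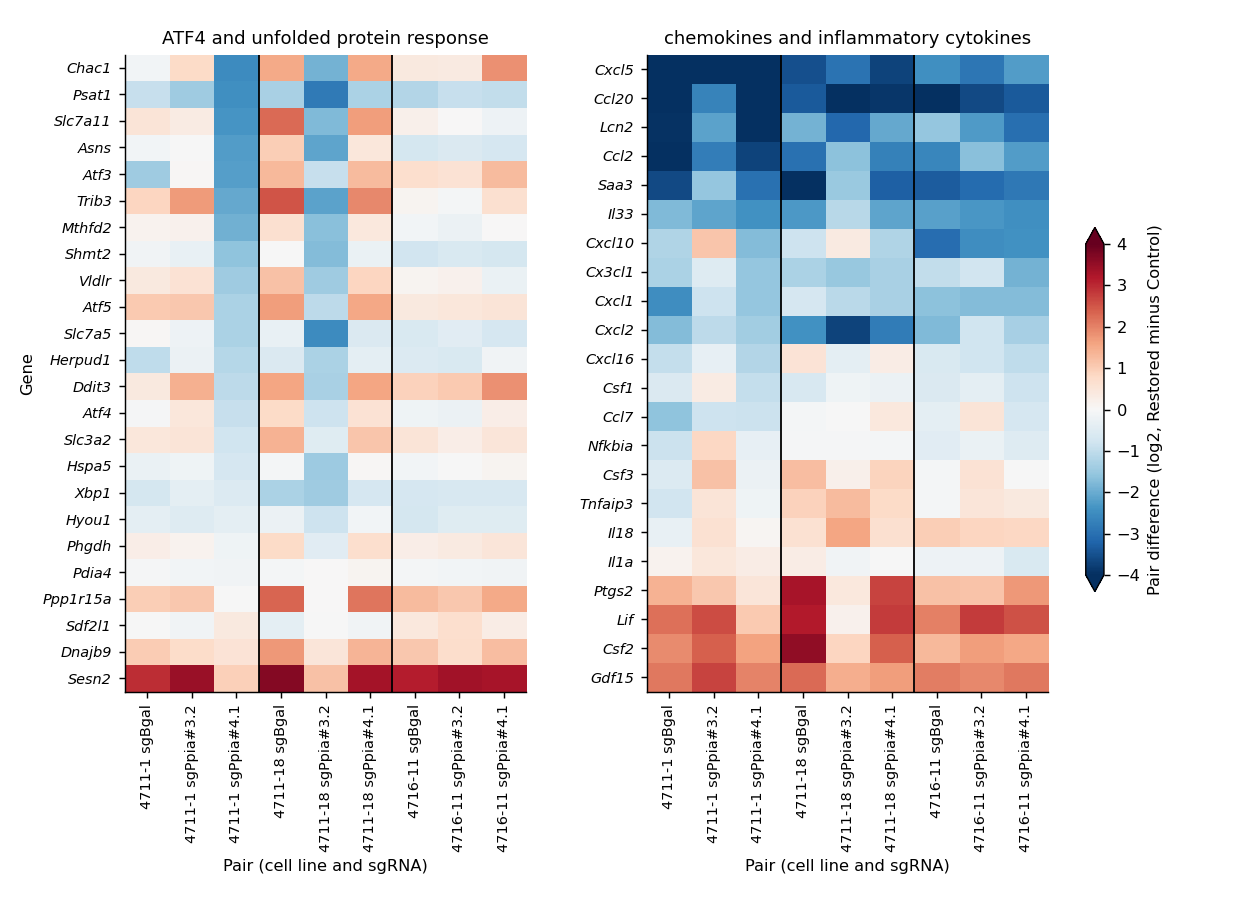
Pair difference in log2(TPM + 1), Restored minus Control, for the 24 tested genes of the ATF4 list and the 22 of the chemokine list (rows) in the 9 populations (columns), in red for rises and blue for falls, with the scale ending at -4 and 4. The sgPpia#4.1 column of 4711-1 and the sgPpia#3.2 column of 4711-18 are blue for most ATF4 genes, and Cxcl5, Ccl20, Lcn2 and Ccl2 are blue in all columns.

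Chemokines and inflammatory cytokines held several of the largest falls of 4711-1. Of 22 tested, 10 fell and 3 rose in 4711-1, beside 2.96% and 5.71% of all genes. The median was -0.71 in 4711-1, -0.20 in 4711-18 and -0.70 in 4716-11. The median of 4711-1 rested on 2 of its 3 populations, with -1.06 in the sgBgal pair and -1.07 in the sgPpia#4.1 pair but 0.006 in the sgPpia#3.2 pair. In that last pair 7 genes were lower and 6 higher by at least 1, beside 2.66% and 7.97% of all genes. Ccl20, which attracts lymphocytes and dendritic cells, fell from 133, 18.5 and 35.8 TPM to 3.38, 2.05 and 0.645 TPM, and Ccl2, which attracts monocytes, from 173, 42.6 and 165 TPM to 9.05, 5.49 and 11.6 TPM. Lcn2, an iron-sequestering protein of the acute phase, fell from 123, 19.6 and 74.7 TPM to 7.01, 3.66 and 2.85 TPM. In each of these genes the sgPpia#3.2 Control was the lowest of the 3 Controls, and still above every Restored sample. The log2 falls of Ccl2 and Lcn2, -3.53 and -3.46, differed from the mean of the other lines by -1.22 and -1.15, and neither difference passed the test (limma, adjusted p = 0.116 and 0.268). Lbp, which binds bacterial lipopolysaccharide, had a log2 change of -2.91 against -1.73 and -1.07, and that difference also missed the threshold (limma, adjusted p = 0.0561). Of the list, only Cxcl5 was called in the difference. Csf2, the growth factor GM-CSF, and Gdf15, a stress-induced cytokine, went the other way, from 109, 101 and 37.9 TPM to 410.4, 528 and 117 TPM for Csf2 and from 259, 159 and 91.8 TPM to 1116, 1031 and 364 TPM for Gdf15.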

How the data were processed

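Total RNA of 18 cultures of established mouse cell lines was extracted with the RNeasy Mini Kit and sequenced from NEBNext Ultra II libraries. The authors deposited TPM for 25239 genes, 1 column per sample, each with the same sum. The submitters' processing notes name bcl2fastq 2.17 and HISAT2 and both mm10 and GRCm39 as builds. Which of these builds and which counter gave the TPM is not given in the sources used here, and TPM hold no read totals, so absolute depth is unknown and no counting interval was computed.

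Samples were grouped by the line, sgRNA and state in their titles. The value log2(TPM + 1) was fitted for 12828 genes, those that reached 1 TPM in 3 or more samples, with limma 3.58.1 (R 4.3.3), with 1 term for each of the 9 populations and 1 restoration effect per line. Fold changes on this scale understate the change of low genes. A call needed a log2 change of at least 1 in size and a Benjamini-Hochberg adjusted p below 0.05. A response differed from each other line where the contrast against their mean was called and both single contrasts had its sign and an adjusted p under 0.05. The Control and Restored samples of a population come from the same cells, and their deviations from the group means correlated at 0.15 to 0.49 in the 9 pairs, 0.37 to 0.49 in 4711-1. Tables were handled in Python 3.11.15 with pandas 2.3.3. The fit was tested on simulated data.

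The line, the gene lists and the tests were chosen with earlier results of these data known. Named genes were the 12 largest rises and falls of 4711-1 with the same sign in 3 of 3 pairs and a mean of at least 5 TPM in the higher group, the 15 largest differences from each other line in both directions with pairs outside the range of the others and at least 5 TPM in the highest group, list members called, the markers, and Trp53, Ppia, Cdkn1a, Mdm2, Rb1 and Rbl2. Predicted genes were not named, and not all of these genes are printed. Some genes that met the rule are not reported here. A few list members that missed the call are shown for the split between populations or as examples. Alternatives were a pseudocount of 0.1, other filters, no block, median-of-ratios rescaling, eBayes with trend and robust estimates, a fit on 4711-1 alone, no minimum fold, each population of 4711-1 left out in turn and, added after the data were seen, the sgPpia#3.2 population of 4711-18 left out. Promoters were those of RefSeq GRCm38.p6 and may differ in build from the deposited values.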

Additional observations from a re-analysis of the deposited data

Results flagged for a closer look

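The following genes are listed because the response of 4711-1 differed from each of the other lines by a test of the difference itself. Values are the log2 response of 4711-1 minus the mean of 4711-18 and 4716-11, with limma's adjusted p over all genes tested. The naming rule required the 3 pairs of 4711-1 to lie outside the range of the 6 others, so that is no further support. Rgs16, Fam124a, Fam167a, Klk8, Pitpnm3, Alpl and St8sia6 were below 1 TPM in every sample of the other lines and were tested only because of their level in 4711-1, so their difference largely restates the response of that line.

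The response was higher in 4711-1 for Rgs16 (2.86, adjusted p = 0.00133), Bmp2 (2.49, 0.0088), Aqp8 (2.33, 0.0109), Fam124a (2.13, 0.000698), Fam167a (1.92, 0.000698), Nptx1 (1.89, 0.0034) and Soat1 (1.78, 0.00968). It was also higher for Tmigd1 (1.57, 0.0224), Deptor (1.48, 0.00555), Pitpnm3 (1.46, 0.00491), Qrfp (1.43, 0.00715), Klk8 (1.37, 0.00279), Adgrg3 (1.29, 0.0051) and Snx20 (1.27, 0.0062).

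The response was lower in 4711-1 for Mmp15 (-2.57, adjusted p = 0.000344), Cpt1c (-1.95, 0.00602), Sncg (-1.85, 0.00747), Alpl (-1.84, 0.00706), Vnn1 (-1.81, 0.00715), Mcam (-1.77, 0.00259), Dio3 (-1.76, 0.000698) and Vnn3 (-1.71, 0.0103). It was also lower for Cxcl5 (-1.64, 0.0089), Mgmt (-1.55, 0.0162), St8sia6 (-1.55, 0.0151), Adgrg6 (-1.48, 0.00876), Clca3a1 (-1.48, 0.0201), Angptl2 (-1.47, 0.000698) and Filip1l (-1.46, 0.00985).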

How the results depend on the processing

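The Control and Restored samples of a population form a pair, and without this replicate block 1082 genes were called in 4711-1 in place of 1113, 101 in place of 142 differed from the mean of the other lines, and 38 in place of 75 from each of them, 37 of these shared. In 4711-18 and 4716-11 the fit without the block called 1739 and 1373 genes. A pseudocount of 0.1 gave 34 genes that differed from each line, 24 of them shared, and no filter on low values gave 45. Leaving out 1 population of 4711-1 gave 973 to 1280 calls in that line, 74 to 130 differences from the mean of the others and 39 to 70 from each, the lowest counts of differences being those without sgPpia#4.1. Without the sgPpia#3.2 population of 4711-18, 201 genes differed from the mean of the others and 119 from each line, 71 of them shared. With no minimum fold the counts were 5561, 445 and 132. No called value of a named gene changed its direction under these alternatives, whereas the median of the DNA replication genes, near 0, turned from 0.09 to -0.06 with rescaling.

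For single genes only the difference from the mean of the other lines was followed, not the difference from each line. Of the 30 genes named for a difference, 15 kept that call under every alternative that tested them, among them Bmp2, Soat1, Mmp15, Vnn1 and Deptor. The 15 include Rgs16, which was tested through 4711-1 alone. The call was lost by 13 with a pseudocount of 0.1 and by 4 without the block. Of 176 named genes or list members called in 4711-1, 146 were called under every alternative that tested them. Limits are the 3 populations of 1 line, which differ in sgRNA, TPM without read totals, and low genes whose fold rests on the pseudocount. The cause of these changes was not tested.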
